A study of Mus musculus with 16 samples.

Results

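The data described here are the 8 arrays, of 16 in the series, that were hybridised with liver RNA from Gcn2 knockout mice, and the question is what changed in these livers when methionine was left out of the perfusion medium. The 8 arrays were chosen by genotype alone. They comprise 4 arrays of livers perfused with the full set of amino acids (+Met) and 4 of livers perfused with the same medium lacking methionine (−Met). Each medium is represented by 2 arrays of unfractionated RNA, extracted from the cleared homogenate, and by 2 arrays of polysome RNA, taken from the part of a sucrose gradient where mRNAs loaded with ribosomes sediment.

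All the mice, knockouts and their wild-type littermates, were 3 to 6 months old, fed freely before the experiment, and carried either the intact gene (Gcn2+/+) or a global deletion (Gcn2-/-), so Gcn2 was missing from every cell type of the knockout livers. The livers were perfused in a single pass, and RNA of 2 livers was pooled for each array. Replicates are therefore 2 pools per medium, and an unfractionated and a polysome array of the same number come from the same pool as far as the numbering tells. The +Met livers were perfused as well, so perfusion is common to both media. The 8 wild-type arrays of the same layout serve below only to test where the knockout response differed.

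Gcn2 (gene Eif2ak4) is a protein kinase that binds uncharged tRNA, the sign of a missing amino acid, and phosphorylates the initiation factor eIF2. Phosphorylated eIF2 lowers general translation and favours translation of the transcription factor ATF4, which switches on amino acid transporters, Asns and other genes of amino acid supply. Other kinases can phosphorylate eIF2, and the mTORC1 pathway also reads amino acids, so a liver without Gcn2 keeps other routes by which it could respond. Methionine itself feeds S-adenosylmethionine, cysteine and, through propionyl-CoA, the citric acid cycle, and the liver holds most of the enzymes of its breakdown.

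The signal of Eif2ak4 was 21.19 to 52.92 on the 8 knockout arrays and 62.89 to 103.5 on the 8 wild-type arrays, with no overlap. No source used here says where its probes lie relative to the deleted part. Signals had been brought to a common trimmed mean of 150.0, and 26.9% to 28.5% of 45101 probe sets reached a signal of 80. All 6 hepatocyte markers (Alb, Apoa1, Ttr, Cps1, Tat and Pck1) were above 80 on every knockout array, with a summed signal of 65810 to 88075. The number of arrays limits the precision.

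Both arrays of the +Met pool 2 stood apart from the other 6 knockout arrays for a set of genes. Gdpd3, a phospholipase of the glycerophosphodiester family, read 7.768 in unfractionated and 5.007 in polysome RNA of that pool and 413.7 to 1350 on the other knockout arrays. Ang, the gene of the secreted ribonuclease angiogenin, read 125.1 and 103.4 against 4887 to 8280. Of 22 genes of pancreatic digestive enzymes and related proteins, a list drawn up after the values were seen, 18 were on the array. Their summed signal was 7007 in unfractionated and 4894 in polysome RNA of the pool, against 1332 to 2118 on the other 6 knockout arrays. The neutrophil gene S100a8 read 169.3 and 441.0 in this pool against 10.85 to 31.32 elsewhere. The counts of calls, the called genes and the main gene lists below are therefore also given without this pool, which leaves 1 pool with methionine.

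Without methionine, 5 genes rose and 5 fell in the knockout livers across both fractions, 10 of 10916 genes tested (0.0916%, and 0.0458% in each direction), by limma with Benjamini-Hochberg adjustment at a threshold of 0.05. Higher were Slc10a2 and Slc22a7, which encode transporters of bile acids and of organic anions, the rhythmic gene Noct, the serpin gene Serpina12 and Gm4951. Lower were Mmut and Adi1, whose enzymes handle carbon derived from methionine, Coq8a, Ndrg1 and Lrtm1. In each of the 10 genes every −Met array lay on the same side of every +Met array of its fraction. At an unadjusted p under 0.05 there were 1160 genes, 620 higher (5.68%) and 540 lower (4.95%). Of the 10 calls, 8 were lost without any 1 of at least 7 of the 8 arrays. Taking the pool as random block, which allows for the 2 fractions sharing a pool, 4 calls remained: Slc10a2, Noct, Coq8a and Mmut. Without the +Met pool 2, 3 of the 10 calls remained (Slc10a2, Serpina12 and Adi1).

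**Figure D1:**
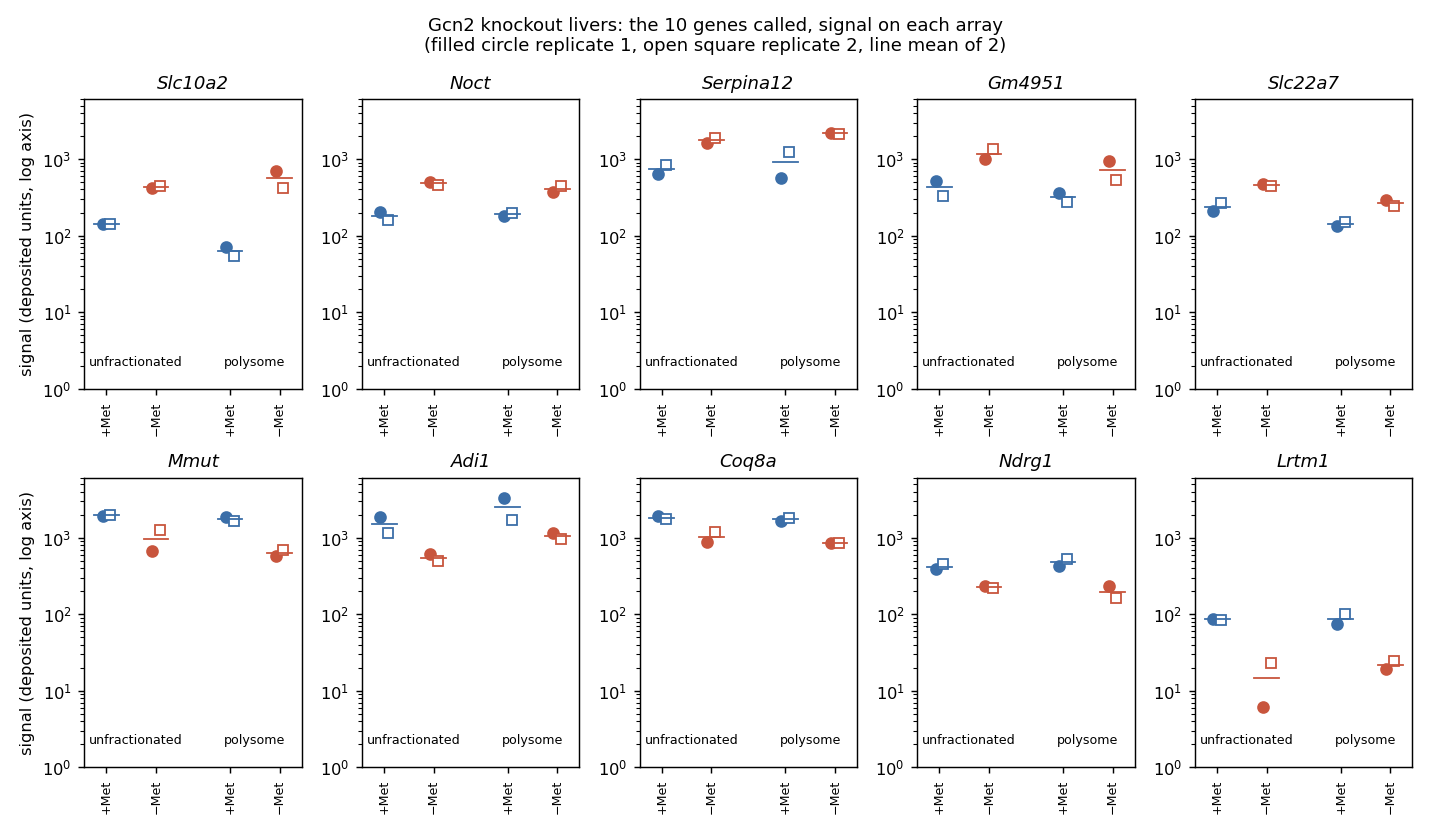
Signal in deposited units on a log axis for the 10 genes called between media in Gcn2 knockout livers, in unfractionated and polysome RNA, with +Met arrays in blue and −Met arrays in red. Filled circles are pool 1, open squares pool 2, and lines the mean of 2; in every panel the 2 media do not overlap within a fraction, and Lrtm1 falls to 6.216 to 24.38 without methionine.

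The largest change called was that of Slc10a2, which encodes the apical sodium-dependent bile acid transporter, best known from the ileum and, within the liver, from bile duct cells. Its signal in unfractionated RNA was 142.1 and 139.4 in the +Met pools and 415.7 and 441.7 in the −Met pools. In polysome RNA it was 70.06 and 53.69 with methionine and 697.3 and 417.0 without. All 4 −Met arrays thus lay well above all 4 +Met arrays, and the pools within a group lay close together except in −Met polysome RNA. The change shared by the fractions was a log2 fold change of 2.17 ± 0.25 (standard error, 4 arrays for each medium, limma adjusted p = 0.0099, and 0.022 with the pool block). It was 1.50 in unfractionated and 2.84 in polysome RNA, a difference between fractions of 1.34 that was not called (unadjusted p = 0.0032, adjusted p = 1.0). Slc10a2 kept its call without the +Met pool 2 (2.09, adjusted p = 0.025) and without any 1 of 7 arrays, and lost it without the +Met polysome replicate 1 (2.10, adjusted p = 0.052). The summed signal of the 5 markers of bile duct cells on the array was 134.8 to 189.2 in unfractionated −Met RNA and 162.5 to 195.7 in +Met RNA. In polysome RNA it was 145.5 to 166.7 against 110.4 to 158.8, so these markers overlapped between media in both fractions, and none reached a signal of 80 in any −Met array.

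Among 22 tested genes of bile acid synthesis and transport, Slc10a2 was the member called, and the list's median log2 fold change was 0.11 against 0.00 over all genes tested. The other members without overlap between media were Slc10a1 (0.26), the sodium-dependent bile acid uptake carrier of hepatocytes, Slco1b2 (0.24), an organic anion carrier, and Nr0b2 (-0.66), the nuclear receptor SHP that restrains bile acid synthesis. None of these 3 passed (limma adjusted p = 0.16 to 0.50). Nr0b2 read 2004 and 1853 with methionine and 1502 and 1001 without in unfractionated RNA, and 1261 and 1765 against 1132 and 759.1 in polysome RNA. The synthesis enzymes Cyp7b1 (0.71) and Cyp8b1 (0.63) had positive values and overlapped between media. With the +Met pool 2 left out, 7 of 22 (31.8%) were higher and 2 lower without overlap, against 15.8% and 14.2% of all genes.

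Slc22a7, the organic anion transporter OAT2 of the hepatocyte's blood-facing membrane, rose by a log2 fold change of 0.88 ± 0.14 (standard error, 4 arrays for each medium, limma adjusted p = 0.048, and 0.074 with the pool block). Its signal went from 207.2 and 267.2 to 475.7 and 445.6 in unfractionated RNA and from 133.0 and 148.2 to 290.8 and 240.7 in polysome RNA. The size was alike in both fractions, 0.92 and 0.84. The call was lost without any 1 of the 8 arrays (0.81 to 0.94, adjusted p = 0.072 to 0.16) and without the +Met pool 2 (1.00, adjusted p = 0.12). Wild-type livers gave a similar value for this gene, 0.82 ± 0.24 (adjusted p = 0.072).

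Noct encodes nocturnin, an NADP(H) phosphatase whose mRNA rises and falls with the time of day in liver. Its signal was 200.6 and 158.5 with and 499.3 and 463.8 without methionine in unfractionated RNA. The polysome arrays read 180.4 and 196.6 with and 375.0 and 439.1 without. The rise was therefore about equal in the 2 fractions, and no −Met array came near a +Met array. Its log2 fold change was 1.20 ± 0.14 (standard error, 4 arrays for each medium, limma adjusted p = 0.0099, and 0.022 with the pool block). The call was lost without the +Met unfractionated replicate 1, the +Met unfractionated replicate 2 or the +Met polysome replicate 1 (1.11 to 1.23, adjusted p = 0.051 to 0.057), and narrowly without the +Met pool 2 (1.15, adjusted p = 0.053).

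RefSeq start sites (GRCm38.p6) were given for 5 of the 10 called genes, and the 250 bases upstream of each start were searched on both strands. The motifs were the E-box CACGTG, bound by clock factors, the D-box TTATGNAA, bound by DBP and its relatives, and the CARE element TGATGNAA, bound by ATF4 with its partners. Over 32851 upstream windows of that length these letters occurred in 6.02%, 3.07% and 3.45%. Among the called genes 1 window held a match, a D-box beginning 94 bases upstream of the Noct start. The windows of the 2 genes with the firmest rises are shown, Noct at chr3:51224197-51224446 on the plus strand and Slc10a2 at chr8:5105288-5105537 on the minus strand, with the match in capitals. A match is a stretch of letters and no proof of binding.
Noct: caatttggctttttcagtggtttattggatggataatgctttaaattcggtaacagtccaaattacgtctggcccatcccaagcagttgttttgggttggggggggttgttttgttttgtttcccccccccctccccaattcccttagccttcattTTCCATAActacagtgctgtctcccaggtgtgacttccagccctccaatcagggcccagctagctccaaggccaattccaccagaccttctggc
Slc10a2: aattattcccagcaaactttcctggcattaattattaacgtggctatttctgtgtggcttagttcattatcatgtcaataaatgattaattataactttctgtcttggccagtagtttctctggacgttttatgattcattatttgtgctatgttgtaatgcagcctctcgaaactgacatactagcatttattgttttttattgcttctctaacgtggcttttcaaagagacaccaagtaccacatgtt

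Serpina12, which encodes vaspin, a secreted serine protease inhibitor, rose by a log2 fold change of 1.30 ± 0.20 (standard error, 4 arrays for each medium, limma adjusted p = 0.048, and 0.065 with the pool block). Signals in unfractionated RNA were 630.8 and 841.4 with and 1622 and 1901 without methionine, and in polysome RNA 560.6 and 1248 against 2214 and 2125. The 2 +Met polysome arrays differed from each other by more than any other pair for this gene, and without replicate 2 of them the value was 1.52. Without the +Met pool 2 it was 1.69 (adjusted p = 0.0029). The call was lost without any 1 of the other 7 arrays (1.07 to 1.40, adjusted p = 0.059 to 0.16).

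Gm4951, annotated in mouse as a GTPase of the interferon-inducible family, rose by 1.28 ± 0.21 (standard error, limma adjusted p = 0.048, and 0.077 with the pool block). Its signal was 522.3 and 329.0 with and 1007 and 1333 without methionine in unfractionated RNA, and 362.3 and 273.3 against 931.1 and 524.0 in polysome RNA. The −Met polysome replicate 2 lay nearest to the +Met arrays. The call was kept without that array (1.48) and lost without any 1 of the other 7 (1.12 to 1.39, adjusted p = 0.075 to 0.16) or without the +Met pool 2 (1.02, adjusted p = 0.16). Other interferon response genes gave no call among 26 tested, with a median of 0.11. Of these, 1 (3.85%) was higher without overlap, against 5.52% of all genes.

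Mmut encodes methylmalonyl-CoA mutase, the mitochondrial, cobalamin-dependent enzyme at the last step of propionate breakdown, through which the carbon of methionine, isoleucine and valine reaches the citric acid cycle. Its signal was 1936 and 2001 with methionine and 677.8 and 1269 without in unfractionated RNA. In polysome RNA it went from 1850 and 1645 to 582.4 and 701.5. The 4 +Met arrays were nearly alike, and the −Met unfractionated replicate 2 fell least. The log2 fold change was -1.25 ± 0.18 (standard error, 4 arrays for each medium, limma adjusted p = 0.034, and 0.048 with the pool block). Another probe set of the gene gave -1.16, and a very dim one, with a mean signal of 8.76, gave -0.04. The call was kept without the −Met unfractionated replicate 2 (-1.46), and lost without any 1 of the other 7 arrays (-1.29 to -1.11, adjusted p = 0.063 to 0.11) or without the +Met pool 2 (-1.28, adjusted p = 0.12).

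Mmut was the only gene called among the 27 tested genes of propionate and branched-chain amino acid breakdown, whose median was -0.02. The neighbouring enzymes gave smaller values, with Pcca, a subunit of propionyl-CoA carboxylase, at -0.36 (limma adjusted p = 0.37), Pccb, the other subunit, at -0.07, and Mcee, the epimerase before Mmut, at 0.01. Mmaa and Mmab, which serve the cobalamin cofactor of the mutase, had values of 0.27 and 0.38. Hsd17b10, an enzyme of isoleucine breakdown, was the only other member without overlap (-0.24, adjusted p = 0.44).

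Adi1 encodes acireductone dioxygenase of the methionine salvage pathway, which rebuilds methionine from the methylthioadenosine left by polyamine synthesis. With methionine its signal was 1852 and 1150 in unfractionated and 3297 and 1724 in polysome RNA. Without methionine it was 608.6 and 493.2, and 1171 and 960.6. Pool 1 with methionine was the highest in either fraction, and all −Met arrays lay below all +Met arrays of their fraction. The log2 fold change was -1.27 ± 0.21 (standard error, 4 arrays for each medium, limma adjusted p = 0.048, and 0.065 with the pool block), and -1.67 without the +Met pool 2 (adjusted p = 0.0029). The 3 probe sets of Adi1 disagreed: that tested and another (-1.35) had like values, while the last, with a mean signal of 1106, gave 0.46. The call was kept without the +Met polysome replicate 2 (-1.48) and lost without any 1 of the other 7 arrays (-1.39 to -1.11, adjusted p = 0.072 to 0.16).

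The other 22 tested genes of the methionine cycle gave no call, and the median of the 23 was -0.03. Mat1a, the methionine adenosyltransferase of hepatocytes, had a log2 fold change of 0.03, Gnmt, the glycine methyltransferase that disposes of surplus methyl groups, of -0.01, and Bhmt, which remethylates homocysteine with betaine, of 0.03. Bhmt read 19090 and 21190 with and 18910 and 21600 without methionine in unfractionated RNA, and these 3 genes overlapped between media in both fractions. Cth, which makes cysteine from cystathionine, was at -0.01. Apart from Adi1, Ahcyl1, a relative of the hydrolase of S-adenosylhomocysteine, was the member without overlap (-0.34, limma adjusted p = 0.29). Nnmt, a methyltransferase of nicotinamide, had a value of -0.74 with overlapping arrays (adjusted p = 0.25). Once the +Met pool 2 was left out, 6 of 23 (26.1%) were lower and 2 (8.7%) higher without overlap, and the median was -0.06. Of all genes, 14.2% were then lower and 15.8% higher.

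Coq8a encodes an atypical kinase needed for coenzyme Q synthesis in mitochondria. Its signal was 1924 and 1765 with and 894.5 and 1181 without methionine in unfractionated RNA, and 1654 and 1829 against 861.7 and 848.5 in polysome RNA. The +Met arrays lay within a narrow band, and all −Met arrays lay below it, the unfractionated replicate 2 nearest. It fell by a log2 fold change of 0.92 ± 0.13 (standard error, 4 arrays for each medium, limma adjusted p = 0.028, and 0.048 with the pool block), and its dimmer second probe set gave -0.68. The call was kept without the −Met unfractionated replicate 2 and lost without any 1 of the other 7 arrays (-0.96 to -0.86, adjusted p = 0.050 to 0.11) or without the +Met pool 2 (-0.92, adjusted p = 0.12).

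Ndrg1, a gene induced by hypoxia and other stress, had 5 probe sets, all with a negative value (-1.07 to -0.59). The tested one read 389.0 and 449.4 with and 234.5 and 218.1 without methionine in unfractionated RNA, and 425.3 and 536.5 against 234.4 and 162.3 in polysome RNA. All −Met arrays lay below all +Met arrays of either fraction. The log2 fold change was -1.03 ± 0.16 (standard error, limma adjusted p = 0.048, and 0.065 with the pool block). The call was lost without any 1 of the 8 arrays (-1.11 to -0.90, adjusted p = 0.068 to 0.16) and without the +Met pool 2 (-0.90, adjusted p = 0.15).

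Lrtm1, a gene of a leucine-rich repeat membrane protein, was the dimmest of the 10. Its signal was 88.16 and 83.47 with and 6.216 and 23.11 without methionine in unfractionated RNA, and 73.97 and 100.2 against 19.49 and 24.38 in polysome RNA. The −Met values lie near the array medians of 18.3 to 27.7, so the fold change of -1.61 ± 0.24 (standard error, limma adjusted p = 0.047, and 0.065 with the pool block) understates the ratio of the signals. A dimmer second probe set gave -0.03. The call was kept without the −Met unfractionated replicate 2 (-1.74) and lost without any 1 of the other 7 arrays (-1.72 to -1.41, adjusted p = 0.063 to 0.15) or without the +Met pool 2 (-1.54, adjusted p = 0.16).

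**Figure D2:**
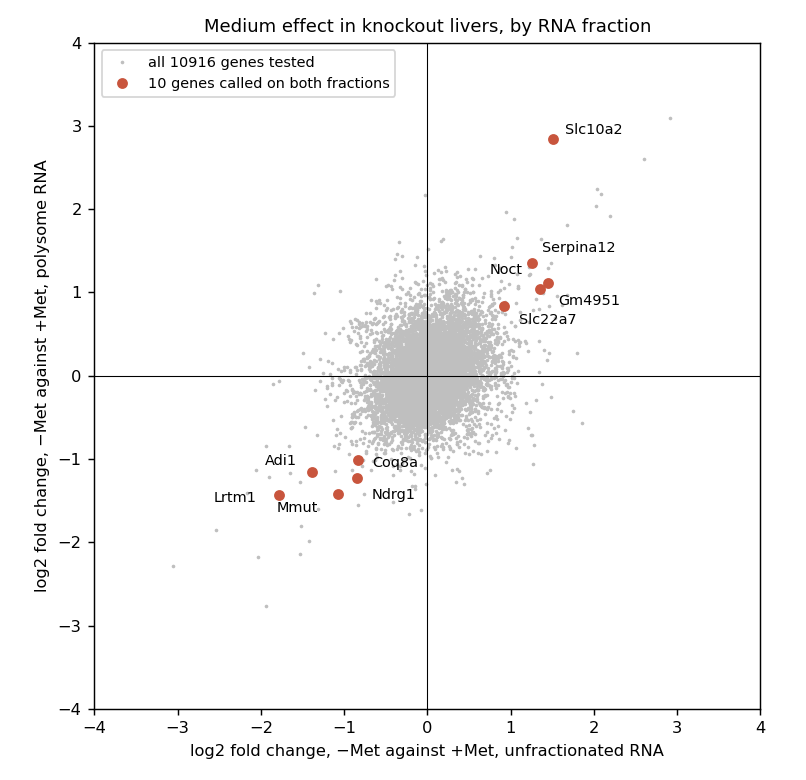
Log2 fold change (−Met against +Met) of each of 10916 genes in knockout livers, in unfractionated RNA (horizontal axis) and polysome RNA (vertical axis), with the 10 genes called over both fractions in red. The called genes lie near the diagonal, with Slc10a2 above it at 1.50 and 2.84, and several grey points farther out were not called.

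The fractions were next compared with each other, to see which changes were not shared. By limma 0 of 10916 genes (0%) had a different medium effect in polysome and unfractionated RNA of knockout livers, with 349 at an unadjusted p under 0.05. Across genes the effects in the 2 fractions correlated at 0.29 (10916 genes, which are not independent, and fractions of the same pools), and 58.8% of genes had the same sign in both. The smallest p-values among differences in favour of polysome RNA were those of H1f4, a linker histone gene (1.72), and Kptn, a part of the KICSTOR complex through which amino acids act on mTORC1 (1.00). H1f4 read 103.6 and 88.43 with and 17.71 and 15.44 without methionine in unfractionated RNA, and 52.22 and 33.18 against 38.52 and 40.78 in polysome RNA, so its media were apart in unfractionated RNA and overlapped in polysome RNA. Kptn read 283.8 and 281.2 with and 265.1 and 288.1 without methionine in unfractionated RNA. In polysome RNA it read 216.8 and 250.1 with and 462.9 and 483.2 without, so the groups separated only there. In the opposite direction they included Pnpla7, a lysophospholipase gene (-1.03), and Chdh, the choline dehydrogenase that makes betaine (-1.01). Chdh read 665.1 and 735.1 against 874.8 and 870.5 in unfractionated RNA and 1357 and 1386 against 965.2 and 726.9 in polysome RNA. In wild-type polysome RNA Kptn read 241.5 and 208.3 with and 392.9 and 557.1 without methionine. Pnpla7 read 3253 and 4109 against 1515 and 1764 there, so both moved as in knockout livers. H1f4 and Chdh did not repeat their knockout pattern in wild-type livers.

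Below the threshold, 31 genes had an adjusted p between 0.05 and 0.10 by limma, and all 31 were without overlap between media. They were Foxq1, a forkhead transcription factor (0.98, adjusted p = 0.057), Plk3 (1.25), Apoa4 (1.46), Mt1 (1.26), Nupr1 (1.32), the lysosomal proteases Ctsa (0.76) and Ctss (0.86), and others on the higher side. On the lower side stood Mul1, a mitochondrial ubiquitin ligase (-0.98, adjusted p = 0.057), Srrm2, a splicing factor (-0.74), Prodh2, an enzyme of hydroxyproline breakdown (-0.84), and Pmpcb, a subunit of the protease that trims imported mitochondrial proteins (-0.66). Polrmt (-0.65) and Gfm1 (-0.74), which serve mitochondrial transcription and translation, were also among them. None of these 31 is counted as changed.

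The targets of the pathway that Gcn2 normally drives gave no call. Asns, the asparagine synthetase gene and a classical ATF4 target, read 66.74 and 67.11 with and 53.71 and 60.86 without methionine in unfractionated RNA, and 42.82 and 39.20 against 43.84 and 92.42 in polysome RNA. Its log2 fold change was 0.16 (limma adjusted p = 0.87), and the wild-type arrays read 377.5 to 1137 in either medium. Atf4 itself was higher on every −Met array of a fraction, 2132 and 2127 against 1462 and 1475 in unfractionated RNA and 2236 and 2350 against 1235 and 1848 in polysome RNA. That difference, 0.56 ± 0.13, did not pass (adjusted p = 0.12).

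Over the 33 tested ATF4 targets the median was 0.06, with 0 called, 22 positive, and 4 higher and 0 lower without overlap. The background over all genes tested was 603 higher (5.52%) and 543 lower (4.97%) without overlap. The 4 were Nupr1, a stress-induced chromatin protein (1.32, limma adjusted p = 0.090), Herpud1, of ER-associated degradation (0.51), Phgdh, the first enzyme of serine synthesis (0.67), and Cebpb (0.14). Nupr1 read 10.42 and 9.293 with and 60.38 and 73.16 without methionine in unfractionated RNA, and 17.77 and 34.52 against 52.08 and 80.69 in polysome RNA. Ddit3 (-0.01), Trib3 (0.16), Chac1 (0.34), Atf3 (0.09) and Fgf21 (-0.73), other genes of this response, all overlapped between media. Fgf21 was dim and scattered, with signals of 2.662 to 126.0. When the +Met pool 2 was left out, the list had 5 members higher and 9 lower without overlap, 15.2% and 27.3%, against 15.8% and 14.2% of all genes.

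Amino acid transporters had a median of 0.21 over 23 tested, with 0 called. Without overlap 4 (17.4%) were higher and 1 (4.35%) lower, against 5.52% and 4.97% of all genes. Slc7a2, a carrier of cationic amino acids, read 784.8 and 627.8 with and 1007 and 1047 without methionine in unfractionated RNA, and 663.0 and 550.7 against 1148 and 752.1 in polysome RNA (0.57, limma adjusted p = 0.17). Slc38a9, the lysosomal arginine sensor (0.45), Slc38a4 (0.21) and Slc6a12, a betaine carrier (0.26), were the other 3 higher. Slc6a6, the taurine transporter, was the one lower (-0.49, adjusted p = 0.17). Of the 23, 7 (30.4%) were higher and 2 (8.7%) lower without overlap once the +Met pool 2 was left out. The shares of all genes were then 15.8% and 14.2%. In wild-type livers the median of the list was 0.24, with 3 members called higher by the fit of all 16 arrays.

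**Figure D3:**
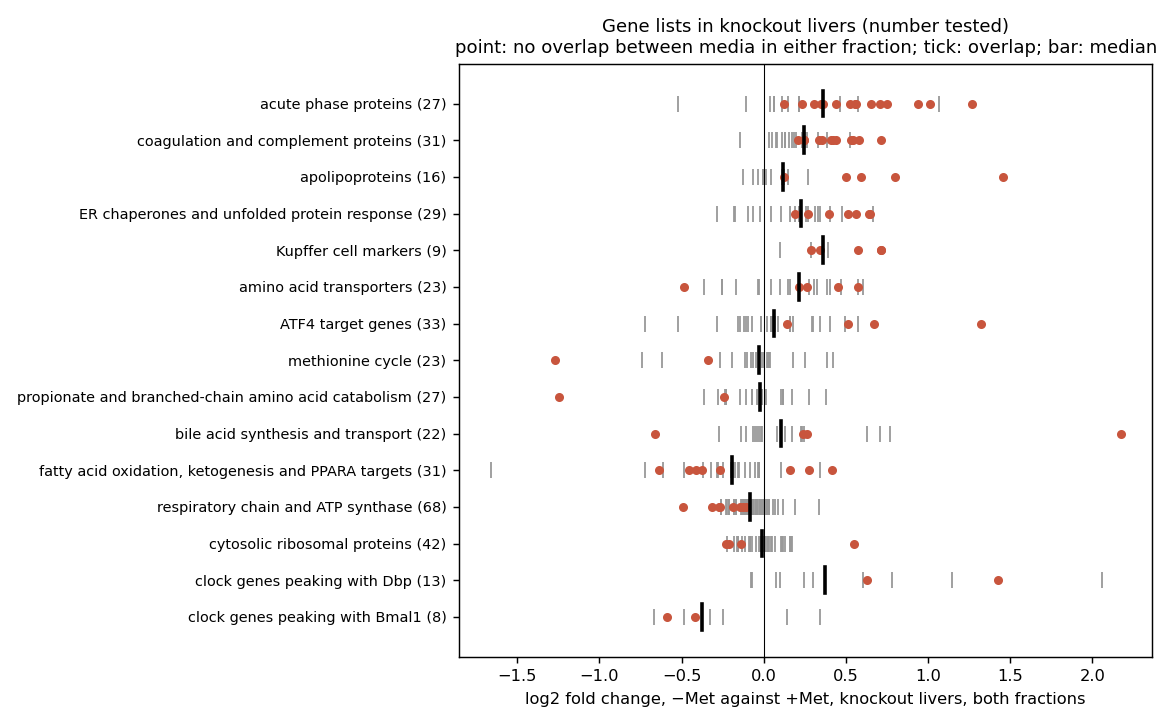
Log2 fold change (−Met against +Met) over both fractions in knockout livers for the tested members of 15 gene lists, with the number tested beside each name. Points are members without overlap between media in either fraction, ticks are members with overlap, and bars are medians, which run from -0.37 for clock genes of Bmal1 phase to 0.37 for those of Dbp phase.

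Genes of plasma proteins made by hepatocytes had mostly positive values without methionine, with no call. Of 27 tested acute phase genes, whose proteins rise in blood during inflammation, 0 were called and 25 were positive, with a median of 0.36. Without overlap 15 (55.6%) were higher and 0 lower, against 5.52% and 4.97% of all genes. Saa2, a serum amyloid A gene, read 117.9 and 136.1 with and 204.0 and 297.4 without methionine in unfractionated RNA, and 159.7 and 112.5 against 214.1 and 462.0 in polysome RNA (1.01, limma adjusted p = 0.11). Mt1, a metallothionein (1.26, adjusted p = 0.090), Crp, C-reactive protein (0.55, adjusted p = 0.099), and Saa4, a constitutive serum amyloid A gene (0.75, adjusted p = 0.11), lay close to the threshold. Saa1 had a value of 1.07 with overlap in polysome RNA (adjusted p = 0.18).

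In wild-type livers 19 of the same 27 genes were called higher, with a median of 1.03 against 0.36. In all, 228 genes were called higher (2.09%) and 84 lower (0.77%) in wild-type livers. These wild-type calls came from a fit of all 16 arrays, with 10 residual degrees of freedom. The knockout calls came from 8 arrays, with 5, so the counts of calls are not on equal terms. With all 16 arrays in 1 fit, 23 genes were called higher and 9 lower in knockout livers. The difference between genotypes was called for 3 of the 27: Apcs, serum amyloid P (knockout minus wild-type -2.60), Fga, the fibrinogen alpha chain (-0.92), and Itih4 (-1.02). With the pool block Apcs kept that call (adjusted p = 0.0088) and the other two lost it (0.056 and 0.074). Apcs read 4616 and 3853 with and 3269 and 3437 without methionine in knockout unfractionated RNA, and its knockout effect was 0.04 against 2.64 in wild-type livers. For Saa2 the difference was not called (1.01 against 3.99, adjusted p = 0.066).

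Coagulation and complement genes had the same direction: 0 of 31 were called, 30 were positive, and 12 (38.7%) were higher and 0 lower without overlap, with a median of 0.24. C1s1, a complement protease, read 997.9 and 1100 with and 1452 and 1608 without methionine in unfractionated RNA, and 683.4 and 743.8 against 1102 and 1101 in polysome RNA (0.58, limma adjusted p = 0.090). Serpind1, heparin cofactor II (0.71), F12, coagulation factor XII (0.42), and Serpinf2, antiplasmin (0.53), were the next (adjusted p = 0.11 to 0.15). Of 16 apolipoprotein genes and relatives, 5 (31.2%) were higher and 0 lower without overlap, with a median of 0.12. The shares of all genes were 5.52% and 4.97%. Apoa4, an apolipoprotein of triglyceride-rich particles, read 1088 and 1153 with and 1475 and 3179 without methionine in unfractionated RNA, and 589.3 and 756.7 against 1922 and 3681 in polysome RNA (1.46, adjusted p = 0.090). Apof was at 0.80 (adjusted p = 0.090), and the abundant Apoa1 at 0.11. Of the 16, 7 (43.8%) were higher and 3 (18.8%) lower without overlap once the +Met pool 2 was left out. Of all genes, 15.8% were then higher and 14.2% lower.

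Without the +Met pool 2, 16 of 27 acute phase genes (59.3%) and 16 of 31 coagulation and complement genes (51.6%) were higher without overlap, against 15.8% of all genes, and the medians were 0.28 and 0.22. Leaving out arrays or pools one at a time gave medians of 0.25 to 0.43 for the first list and 0.22 to 0.30 for the second. The medians of both lists were positive under all 3 other scalings.

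Markers of Kupffer cells, the resident macrophages of the liver, had positive values as well. All 9 of 11 markers tested had a positive value, 0 were called and the median was 0.36. Without overlap 5 (55.6%) were higher and 0 lower, against 5.52% and 4.97% of all genes. Cd5l, a secreted macrophage protein, read 113.7 and 172.4 with and 217.3 and 243.9 without methionine in unfractionated RNA, and 81.16 and 84.67 against 135.1 and 171.8 in polysome RNA (0.71, limma adjusted p = 0.11). The summed signal of the 11 markers was 1461 and 1607 with and 2044 and 1980 without methionine in unfractionated RNA, and 1065 and 868.1 against 1443 and 1260 in polysome RNA, with no overlap. In wild-type livers the sums were 2633 to 2652 with and 2846 to 3037 without methionine in unfractionated RNA, and in polysome RNA they overlapped, at 1125 to 1441 with and 1191 to 1694 without. With the +Met pool 2 left out, 7 of the 9 markers (77.8%) were higher without overlap in knockout livers, against 15.8% of all genes. In such bulk samples a different number of cells of a type and a different amount of RNA per cell, fewer or more, cannot be told apart. Of the other lists, Alas2, the erythroid enzyme of heme synthesis, was also higher without overlap (0.44), and it was the only 1 of 3 erythroid markers on the array to reach a signal of 80. The 9 sinusoidal endothelial markers overlapped in sum in unfractionated RNA and were apart in polysome RNA, at 581.2 to 667.9 with and 708.6 to 913.1 without methionine. The 7 lymphocyte markers overlapped in sum in both fractions. The part of these cell markers in the shifts of plasma protein genes was not tested.

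Chaperones of the endoplasmic reticulum, which fold secreted proteins, also had mostly positive values. Of 29 tested genes, 0 were called and 23 were positive, with a median of 0.22. The wild-type median was 0.26, with 4 called higher by the fit of all 16 arrays. In knockout livers 7 (24.1%) were higher and 0 lower without overlap, against 5.52% and 4.97% of all genes. Pdia6, a protein disulfide isomerase, read 1091 and 994.2 with and 1405 and 1384 without methionine in unfractionated RNA, and 572.9 and 704.4 against 1132 and 1202 in polysome RNA (0.64, limma adjusted p = 0.11). Pdia3 (0.65), Herpud1 (0.51) and Calr, calreticulin (0.40), were next. Hspa5, the main chaperone of this compartment, had a value of 0.34 with overlapping arrays (adjusted p = 0.35). With the +Met pool 2 left out, 14 of 29 (48.3%) were higher and 2 (6.9%) lower without overlap, against 15.8% and 14.2% of all genes.

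Genes of fatty acid oxidation had mostly negative values. Of 31 tested, 26 were negative, 0 were called, 5 (16.1%) were lower and 3 (9.68%) higher without overlap, against 4.97% and 5.52% of all genes, and the median was -0.19. With the +Met pool 2 left out, 14 (45.2%) were lower and 3 (9.68%) higher, against 14.2% and 15.8% of all genes, and the median was -0.23. In wild-type livers it was 0.22, and the difference between genotypes was called for 0 of them. Acadvl, the dehydrogenase of very long chain acyl-CoA, read 6592 and 6243 with and 4899 and 4465 without methionine in unfractionated RNA, and 3553 and 3565 against 2901 and 2323 in polysome RNA (-0.45, limma adjusted p = 0.12). Acot1, an acyl-CoA thioesterase, had a value of -0.64 (adjusted p = 0.12), Cpt2 and Cpt1a, which carry fatty acids into mitochondria, -0.38 and -0.41, and Angptl4, a lipase inhibitor induced by PPARA, 0.42. Cyp4a14, a fatty acid hydroxylase, read 1791 and 234.1 with and 546.1 and 82.15 without methionine in unfractionated RNA, and 1051 and 261.9 against 244.7 and 76.91 in polysome RNA (-1.66, adjusted p = 0.38). It was lower without methionine in each same-numbered pair, but replicate 1 exceeded replicate 2 in each of the 4 groups, and the media overlapped in unfractionated RNA.

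For the respiratory chain and ATP synthase, 54 of 68 tested genes were negative, with a median of -0.08, against -0.16 in wild-type livers. In knockout livers 8 (11.8%) were lower and 0 higher without overlap, against 4.97% and 5.52% of all genes. Leaving out the +Met pool 2, 22 (32.4%) were lower and 0 higher, against 14.2% and 15.8% of all genes. The median was then -0.10. Uqcrc2, a core subunit of complex III, had the smallest p and a value of -0.49 (limma adjusted p = 0.17), with 6507 and 5363 against 4417 and 4756 in unfractionated RNA and 2895 and 4120 against 2241 and 2250 in polysome RNA. Uqcrc1 (-0.26) and Cyc1 (-0.27) of the same complex were also lower without overlap. Cps1, the first enzyme of the urea cycle, read 10840 and 9604 with and 6321 and 6501 without methionine in unfractionated RNA, and 6878 and 6370 against 5961 and 3593 in polysome RNA (-0.59, adjusted p = 0.12). Prodh, which starts proline breakdown, had a value of -0.61. Cytosolic ribosomal protein genes, 42 tested, had a median of -0.01.

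Clock genes had median values of opposite sign in the 2 genotypes. Among 13 tested genes that peak with Dbp, 11 were positive in knockout livers with a median of 0.37, against -0.73 in wild-type livers, and among 8 that peak with Bmal1 (Arntl), 6 were negative with a median of -0.37, against 0.71. None was called within knockout livers. Without overlap 2 of the 13 (15.4%) were higher and 2 of the 8 (25.0%) lower, against 5.52% and 4.97% of all genes. The 2 higher were Per1 and Per2. Per1 was dim, at 8.011 to 50.49 on the knockout arrays, whose medians were 20.0 to 26.8. The difference between genotypes was called by limma for Per1 (2.07), Per2 (2.58) and Nr1d2 (1.54), repressors of the clock loop, and for Npas2 (-2.10) and Nfil3 (-1.37), an activator and a D-box repressor. With the pool block Per2 (adjusted p = 0.031) and Npas2 (0.034) kept that call and the other 3 lost it (0.056 to 0.071).

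Per2 was near background with methionine, at 1.779 and 7.814 in unfractionated and 23.90 and 2.904 in polysome RNA, and read 44.85 and 38.77, and 62.85 and 46.79, without it. Its log2 fold change of 1.42 did not pass (limma adjusted p = 0.11). Arntl read 273.8 and 352.3 with and 156.4 and 253.7 without methionine in unfractionated RNA, and 234.0 and 335.5 against 144.8 and 231.0 in polysome RNA (-0.59, adjusted p = 0.29). The medium groups were thus apart within a fraction, but replicate 2 exceeded replicate 1 throughout. Dbp, the gene of the D-box activator, separated the pools still more. It read 240.2 and 29.52 with and 1938 and 108.7 without methionine in unfractionated RNA, and 415.7 and 42.47 against 1634 and 203.8 in polysome RNA. Its value of 2.06 ± 0.89 did not pass (adjusted p = 0.43), and it was 0.71 without the +Met pool 2. Replicate 1 was above replicate 2 in each of the 4 groups, the reverse of Arntl.

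Without the +Met pool 2 the clock genes of Dbp phase had a median of 0.22, and 2 of 13 (15.4%) were higher without overlap, near the 15.8% of all genes. Those of Bmal1 phase had a median of -0.33, and 3 of 8 (37.5%) were lower without overlap, against 14.2% of all genes. Leaving out arrays or pools one at a time gave medians of -0.04 to 0.74 for this list and -0.53 to -0.18 for that of Bmal1 phase. No source used here gives the time of day at which livers were perfused.

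The upstream window of Per1 at chr11:69098699-69098948 (GRCm38.p6, plus strand) is shown for comparison with that of Noct, with an E-box beginning 166 bases and a D-box beginning 24 bases upstream of the start in capitals.
Per1: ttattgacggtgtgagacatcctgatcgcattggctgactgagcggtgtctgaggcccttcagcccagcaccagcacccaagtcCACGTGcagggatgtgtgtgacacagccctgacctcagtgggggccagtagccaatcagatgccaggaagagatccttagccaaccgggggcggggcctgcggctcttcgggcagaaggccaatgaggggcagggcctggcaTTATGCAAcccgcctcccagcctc
The other Per1 window, at chr11:69099902-69100151, the window upstream of Dbp and both windows upstream of Arntl held none of the 3 motifs.

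**Figure D4:**
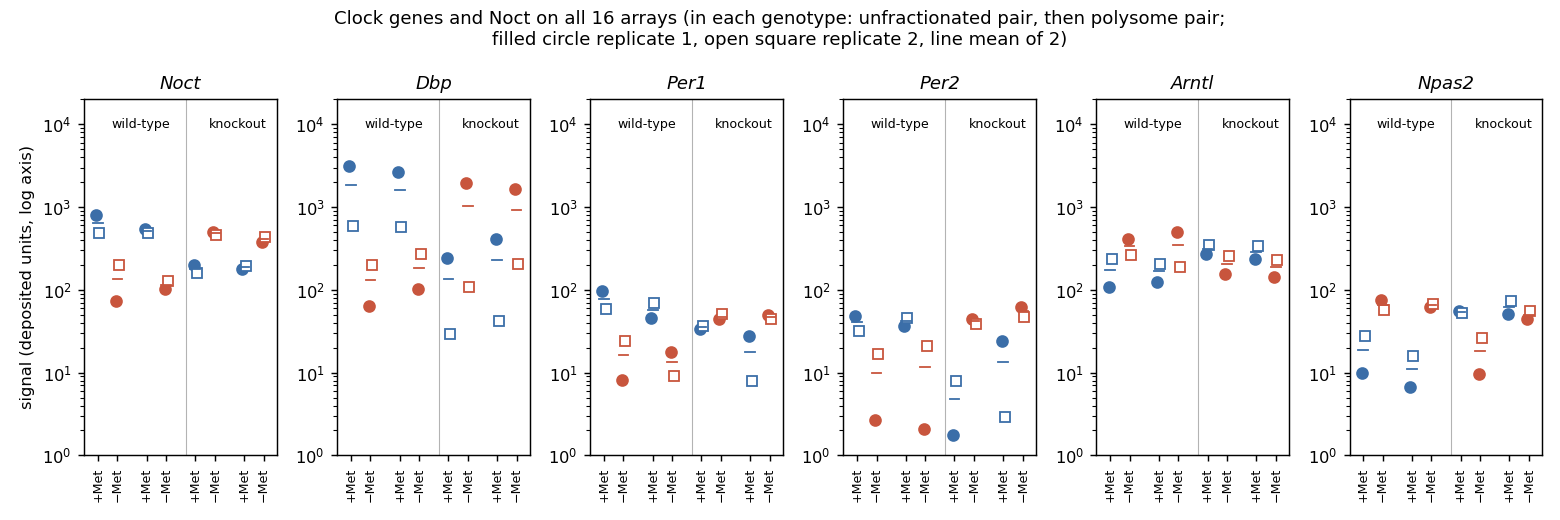
Signal in deposited units on a log axis for Noct and 5 clock genes on all 16 arrays, wild-type on the left and knockout on the right of each panel, with +Met in blue and −Met in red, the unfractionated pair before the polysome pair. Filled circles are replicate 1, open squares replicate 2 and lines the mean of 2; Noct is lower without methionine in wild-type and higher in knockout livers, and Dbp spreads from 29.52 to 1938 among knockout arrays.

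The last comparison asks which of the knockout changes differed from those of wild-type livers. Over all genes, limma called a different medium effect in 47 of 10916 (0.431%), 18 higher and 29 lower in knockout livers, and 20 of these with the pool block. The 47 included 7 of the 10 genes called within knockout livers. Noct differed most clearly: its effect was 1.20 in knockout and -2.12 in wild-type livers, a difference of 3.32 ± 0.30 (standard error, 8 arrays for each genotype, limma adjusted p = 1.7e-05). Slc10a2 differed by 2.91 ± 0.32 (adjusted p = 1.1e-04), from a wild-type value of -0.74 that was not called. Serpina12 likewise had a wild-type value of -0.74 and differed by 2.04 (adjusted p = 0.029).

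Among the genes that fell, Mmut and Coq8a had wild-type values of 0.03 each and differed by -1.28 and -0.96 (limma adjusted p = 0.012 and 0.020). Ndrg1 (wild-type 0.48) differed by -1.51 (adjusted p = 0.0056) and Lrtm1 (wild-type 0.58) by -2.19 (adjusted p = 0.018). These 7 differences were also called with the pool block (adjusted p = 3.61e-05 to 0.043). With the +Met pool 2 left out, the differences of Coq8a (-0.95) and Lrtm1 (-2.11) were no longer called, and that of Coq8a was also lost without the −Met unfractionated replicate 1 (-0.89) or the +Met polysome replicate 2 (-0.91), and without the +Met pool 1 (-0.96) or the −Met pool 1 (-0.86). The difference of Serpina12 was lost without the +Met unfractionated replicate 1, the −Met unfractionated replicate 2, the +Met polysome replicate 1 or the −Met polysome replicate 2 (1.80 to 2.04), and without any pool but the +Met pool 2 (1.66 to 2.08). Those of Noct, Slc10a2, Ndrg1 and Mmut were called whichever knockout array or pool was left out. For Adi1 (difference -1.57, adjusted p = 0.077), Gm4951 (wild-type 0.23, adjusted p = 0.11) and Slc22a7 (difference 0.06) the genotypes were not called different. Adi1 also missed the threshold in wild-type livers (0.30).

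**Figure D5:**
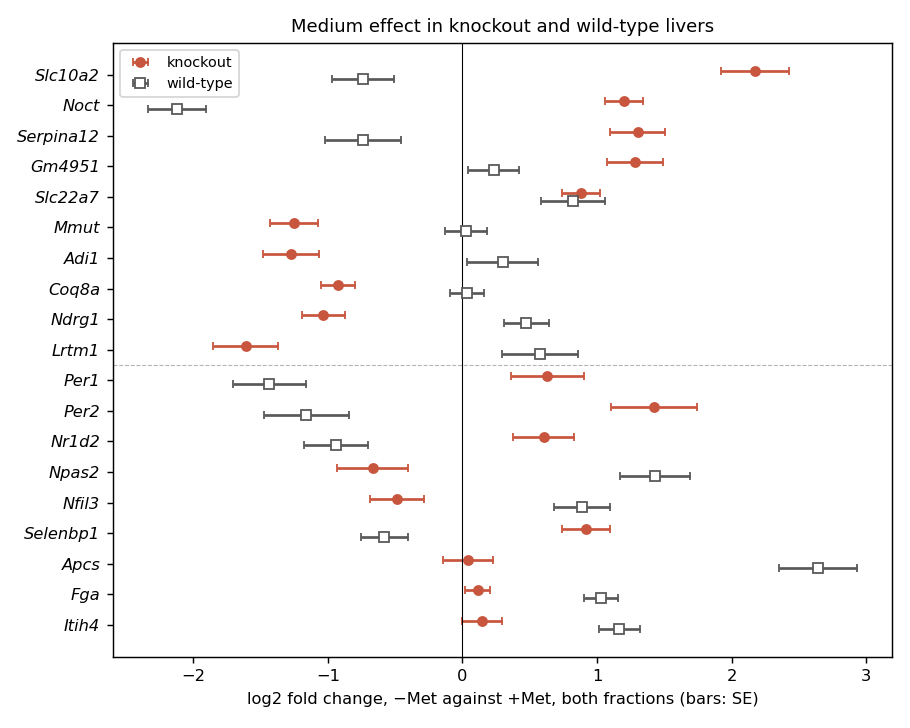
Log2 fold change (−Met against +Met) over both fractions in knockout (red circles) and wild-type livers (open squares), with SE bars, for the 10 genes called in knockout livers (above the dashed line) and 9 further genes whose effect differed between genotypes. Noct and Slc10a2 point in opposite directions in the 2 genotypes, while Slc22a7 has nearly the same value in both (0.88 and 0.82).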

How the data were processed

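Livers of Gcn2 knockout and wild-type mice were measured on 16 Affymetrix arrays. The authors deposited an intensity (linear signal) per probe set, scaled to a 2% trimmed mean of 150.0 on every array; no source used here names their signal algorithm, and no further scaling was applied. Of 45101 probe sets, 34945 had 1 gene symbol in the platform annotation, 932 several, 9160 none and 64 were controls. Each of 18193 genes was represented by its brightest probe set (mean of the 16 arrays), the dimmest 40% of genes were left out, and 10916 were tested as log2(signal + 16). A second deposited table of z scores was not used here.

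The knockout medium effect was fitted with limma 3.58.1 (R 4.3.3; eBayes with trend, two-sided, Benjamini-Hochberg over all genes tested) on the 8 knockout arrays with fraction as a term; both genotype and fraction differences were interaction contrasts. Unfractionated and polysome arrays of one number deviated together (correlations of 0.19 to 0.33 in 4 group pairs), so the pool was also used as a random block (correlation 0.14). Nothing says the pools were separate experiments in time. The main p-values treat the 2 arrays of a pool as independent, so they measure the residual spread between arrays. With both fractions averaged per pool, 1 of the calls remained (Slc10a2). Named genes were all genes called, the fixed genes and up to 4 members of smallest p per list, and others named after their values were seen. Members and gene lists were chosen with earlier results of these data known. Alternatives covered scaling, pseudocount, filters, probe sets, blocks and leaving out arrays or pools; counts without the +Met pool 2 were added after seeing the data. Upstream sequences are from RefSeq (GRCm38.p6).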

Additional observations from a re-analysis of the deposited data

Results flagged for a closer look

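The medium effect differed between genotypes, by limma's test of the difference itself, for 47 genes, of which 22 are named in the text or belong to the gene lists. Each value is the knockout log2 effect minus the wild-type log2 effect over both fractions. Positive differences were found for Noct (3.32), Slc10a2 (2.91), Per2 (2.58), Pfkfb3 (2.52), Per1 (2.07), Serpina12 (2.04), Meiob (1.66), Nr1d2 (1.54) and Selenbp1 (1.50). Pfkfb3, which sets the level of an activator of glycolysis, had an effect of 0.65 in knockout and -1.87 in wild-type livers. Selenbp1, a methanethiol oxidase, had effects of 0.92 and -0.58, and Meiob, a meiosis gene, of 0.60 and -1.05.

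Negative differences were found for Gm7969 (-2.72), Apcs (-2.60), Hsd3b2 (-2.22), Lrtm1 (-2.19), Npas2 (-2.10), Rnf125 (-1.61), Ndrg1 (-1.51), Nfil3 (-1.37), Mmut (-1.28), Itih4 (-1.02), Coq8a (-0.96), Fga (-0.92) and Cyp3a13 (-0.88). Apcs and Cyp3a13, a cytochrome P450, had knockout effects of 0.04 and 0.21 and wild-type effects of 2.64 and 1.08. Hsd3b2, a steroid dehydrogenase, had effects of -0.78 and 1.44, Rnf125, a ubiquitin ligase, of -0.63 and 0.98, and Gm7969 of -0.50 and 2.23.

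The other 25 genes had differences of -2.65 to -0.90 (16 genes) and 0.86 to 1.47 (9 genes). Of all 47, 40 had effects of opposite sign in the 2 genotypes. Choosing genes by a large difference favours opposite signs, so this count is no separate result. Over all genes tested, knockout and wild-type effects correlated at 0.11, and opposite signs were not counted. By the fit of 16 arrays 31 of the 47 were called in wild-type livers, and by that of 8 arrays 7 in knockout livers. The difference was called for 20 with the pool block. Among the 22, Pfkfb3 and Cyp3a13 lost the call with that block (adjusted p = 0.060 and 0.083), as did Per1, Nr1d2, Nfil3, Fga and Itih4. Each genotype contributed 2 pools per medium.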

How the results depend on the processing

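Against 5 genes higher and 5 lower, 3 and 6 were called after quantile normalization, 2 and 2 with a pseudocount of 1, 2 and 1 with no filter on dim genes, and 2 and 0 with the mean of all probe sets of a gene. Without the eBayes trend 0 and 0 were called by limma (1119 genes at an unadjusted p under 0.05). With all 16 arrays in 1 fit 23 and 9 were called (7 of the 10 among them), with the pool as random block 2 and 2, and with both fractions averaged per pool 1 and 0. Unfractionated arrays alone gave 0 and 0 (606 at an unadjusted p under 0.05) and polysome arrays alone 1 and 0. With the replicate number as a fixed block across media 59 and 41 were called, all 10 among them. Same-numbered arrays of the 2 media correlated at 0.22 in unfractionated and -0.01 in polysome RNA of knockout livers. Whether same-numbered pools of the 2 media share more than a number was not tested. Leaving out arrays or pools one at a time gave 0 to 16 higher and 0 to 14 lower, where an array or pool left alone is assumed to vary like the other groups. The genotype difference, 47 genes, was called for 26 with no filter, 17 with the mean of probe sets, 15 without the trend, 27 with group means in 1 fit, 20 with the pool block, and 25 to 69 with arrays or pools left out. The fraction difference gave 0 calls in every alternative run. Except where the number of genes or arrays differs by construction, the cause was not tested. No result changed its sign among called genes. Of the effects of named genes under the alternatives, 159 lost and 5 gained a call. Another 11, called in neither setting, moved by at least the gene's standard deviation between replicate arrays. The other 550 kept their side of the threshold and, where not called, moved by less. The 159 losses all fell on the 10 genes called, since the other named genes had no call to lose. Of list medians 1169 moved by less than their standard deviation between replicate arrays and 73 by at least that much. With 5 residual degrees of freedom and dim genes near the array median, small changes cannot be seen.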

Other observations

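Several further gene groups had no call in knockout livers. Of 34 genes of cytochrome P450 families 1 to 4, which oxidise drugs, steroids and fatty acids, 24 had a positive value. The median was 0.10, and 2 (5.88%) were higher and 0 lower without overlap, against 5.52% and 4.97% of all genes. With the +Met pool 2 left out, 16 (47.1%) were higher and 7 (20.6%) lower, against 15.8% and 14.2% of all genes. In wild-type livers the median was 0.41, and 10 genes were called higher. Of 20 genes of cholesterol synthesis, 15 were positive with a median of 0.16, and in wild-type livers the median was 0.48 with 5 called higher. The wild-type calls of these 2 lists came from the fit of all 16 arrays, the knockout calls from 8 arrays. The 36 aminoacyl-tRNA synthetase genes had a median of -0.04 and the 74 genes of mitochondrial ribosomal proteins of 0.03.

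The largest values of all, Gdpd3 (3.00) and 2210010C04Rik (-2.67), rested on the +Met pool 2, where these genes stood apart, and were not called (adjusted p = 0.29 and 0.49).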
